A study of Mus musculus with 14 samples.

Results

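The kinesin superfamily genes were described in 14 bulk RNA-seq libraries of sorted mouse hair follicle stem cells. The members are all protein-coding genes of the GENCODE mouse annotation whose symbol is Kif followed by a digit, 39 of the 33993 genes with any count. This naming rule used no measured value, but the members and lists were chosen with earlier results of these data known. By textbook role, 11 members were listed as mitotic kinesins, 13 as transport kinesins and 6 as cilium kinesins, and 9 were in none of these lists. Of those 9, Kif1bp encodes a binding partner of kinesins that is not itself a motor. The pseudogenes Kif22-ps and Kif4-ps, with 193 and 430 counts over all libraries, were left out. All 39 members passed the filter on low counts, although Kif2b had a count in only 4 libraries, and Kif12 and Kif19a in 8 each.

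Kinesins are motor proteins that use ATP to move along microtubules or to take microtubules apart. Mitotic kinesins build the spindle, move chromosomes and close the cell at division, and their genes are known to be expressed mostly in the later part of the cell cycle. Transport kinesins carry vesicles, organelles and other cargo in dividing and resting cells alike, and cilium kinesins move in cilia or set their length. Hair follicle stem cells of the bulge are mostly quiescent and enter division at the onset of a growth phase.

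Cells came from back skin at postnatal day 18 (P18) or postnatal day 20 (P20), and the libraries are titled Irx5KO (knockout of the homeobox gene Irx5) or wild type (WT). There were 3 libraries of each genotype at P18 and 4 of each at P20. Cells were sorted as CD34-positive, positive for a marker written CD45f in the protocol, and negative for Ly-6A/E. The allele, strain and sex, and whether a library is 1 animal or a pool, were not given in the sources used here, so the p-values below reflect library-to-library spread, part of which may be technical. The deposited data carry a date-like code whose meaning is not given. At P18, the earlier code marks WT 1, WT 2 and Irx5KO 1, and the later code marks WT 3, Irx5KO 2 and Irx5KO 3. At P20, the later code marks the libraries numbered 1 and 2 of both genotypes, and the earlier code those numbered 3 and 4. The data of P18 WT 3 also carry the word het, although its title says WT.

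Total estimated counts ranged from 13618367 to 70083873 per library. Markers of bulge stem cells were high in every library, with a summed level of 7370 to 23200 TPM (transcript abundance scaled to a fixed total per library). Most of this sum was Krt15, at 6150 to 20900 TPM. The other markers of the list were at 38.9 to 846 TPM. Irx5, the targeted gene, was at 30 and 18.1 CPM (counts scaled to a fixed total, with scaling between libraries) in P20 Irx5KO 1 and 2, below the 108 and 93.6 CPM of P20 WT 1 and 2. It went against the labels in the other P20 libraries, with 181 and 170 CPM in those labelled Irx5KO 3 and 4 and 33.2 and 37.5 CPM in those labelled WT 3 and 4. At P18 it was at 64.0 ± 13.9 CPM in Irx5KO and 112 ± 19.1 CPM in WT (SD, n = 3 each; two-sided exact permutation test, p = 0.1, the smallest p possible), and at P20 over all libraries at 99.8 ± 87.7 CPM in Irx5KO and 68.1 ± 38.3 CPM in WT (p = 0.629 by the same exact permutation test, SD, n = 4 each). Whether the labels of the P20 libraries numbered 3 and 4 are right was not tested, and every direction between genotypes below rests on the labels. Ddx3y, a gene of the Y chromosome, was at 0.124 to 0.592 CPM (raw library sizes) in P18 WT 1, WT 2 and Irx5KO 1 and in P20 WT 1 and Irx5KO 1. It was at 58.6 to 129 CPM in all other libraries. At P18 the low values were those of the earlier code, so sex and code cannot be told apart there. Olfactory and vomeronasal receptor genes, which serve smell and pheromone sensing, held 5.452% of the counts in P18 WT 2, 2.41% in P20 WT 2 and 1.805% in P18 WT 1, against 0.102% to 0.612% in the other libraries. Their mean level per gene is given below as a floor beside low kinesin levels.

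Promoter sequence set the mitotic members apart from the others without using any expression value. RefSeq start sites on build GRCm38.p6 gave a window of 250 bases before to 50 bases after the start for 31 of the 39 members. The letters TTTGAA, on either strand, are the core of the cell cycle genes homology region, an element known from promoters of genes expressed late in the cell cycle. They were in the windows of 9 of 10 mitotic members, 1 of 10 transport members, 1 of 5 cilium members and 1 of 6 other members, against 17.9% of all 32851 windows of this length. In 7 mitotic members the match lay within 25 bases of the start, which held for 2.7% of all windows and for Kif26b among the other members. These 7 stretches are shown because they carry that shared feature, 5′ to 3′ on the strand of the gene, with every TTTGAA or its reverse complement TTCAAA in capitals.
Kif11 (chr19:37376351-37376380, plus strand): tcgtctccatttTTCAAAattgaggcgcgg
Kif15 (chr9:122951050-122951079, plus strand): tggggcgccaaaTTCAAAtctgcggccatc
Kif18b (chr11:102925104-102925133, minus strand): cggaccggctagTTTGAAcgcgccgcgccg
Kif20b (chr19:34922353-34922382, plus strand): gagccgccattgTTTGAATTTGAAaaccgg
Kif22 (chr7:127042420-127042449, minus strand): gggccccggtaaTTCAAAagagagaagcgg
Kif23 (chr9:61946780-61946809, minus strand): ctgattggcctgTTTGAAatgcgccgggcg
Kif4 (chrX:100626072-100626101, plus strand): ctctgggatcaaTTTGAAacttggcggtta

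The match lay farther from the start in Kif14 and Kif2c, at 228 and 103 bases before it. The letters CCAAT, a site known to be bound by the factor NF-Y, were in 6 of 10 mitotic and 3 of 10 transport windows on either strand, against 37.4% of all windows. Both motifs occurred together in 6 mitotic windows and in no transport window, against 6.95% of all windows. The motifs were searched separately, so matches that overlap would both count, and a match is a description of letters and not a shown site. Kif18a was the mitotic member whose window held neither motif. The 90 bases before the start are shown for Kif11, with both motifs in capitals, and for Kif18a and the abundant transport member Kif1c, which hold neither.
Kif11 (chr19:37376292-37376381, plus strand): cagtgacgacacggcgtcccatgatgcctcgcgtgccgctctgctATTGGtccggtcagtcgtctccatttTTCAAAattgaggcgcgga
Kif18a (chr2:109280648-109280737, plus strand): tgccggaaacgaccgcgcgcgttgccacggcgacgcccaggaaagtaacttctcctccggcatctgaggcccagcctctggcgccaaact
Kif1c (chr11:70700458-70700547, plus strand): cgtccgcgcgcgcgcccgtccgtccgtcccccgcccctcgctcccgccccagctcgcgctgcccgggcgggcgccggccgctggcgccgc

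The summed level of the transport kinesins moved little between libraries. It was 336 to 457 TPM in all 14 libraries. The summed level of the mitotic members ranged from 9.96 TPM in P20 WT 3 to 347 TPM in P20 Irx5KO 4. In P20 Irx5KO 4 the mitotic sum was above the transport sum of 336 TPM, which was so in no other library. The mitotic share of all kinesin TPM was 29.7% and 42.6% in P20 Irx5KO 3 and 4, 14.8% and 15.4% in P20 WT 1 and 2, and 3.73% and 3.63% in P20 Irx5KO 1 and 2. It was 1.6% and 1.77% in P20 WT 3 and 4. At P18 it was 7.81%, 14.9% and 5.06% in WT 1 to 3 and 4.47%, 7.39% and 4.79% in Irx5KO 1 to 3. In these bulk samples, fewer cells that express a gene and less RNA per cell cannot be told apart.

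**Figure D1:**
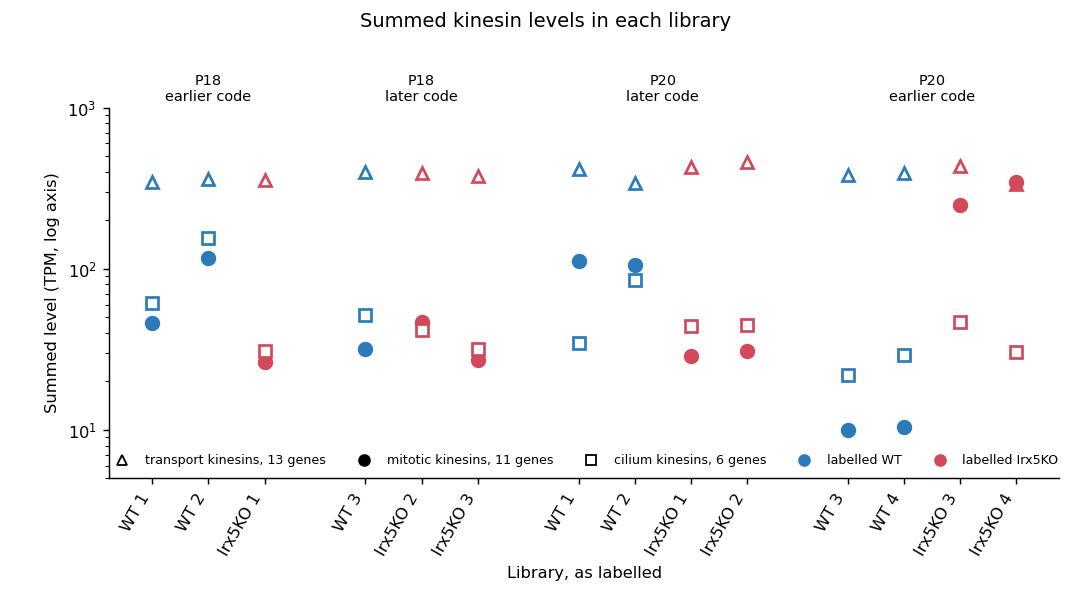
Summed level of the transport, mitotic and cilium kinesins in each library, in TPM on a log axis, by age and date-like code; each symbol is 1 library. Transport sums stay between 336 and 457 TPM, while mitotic sums run from 9.96 to 347 TPM.

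By level per transcript length, the most abundant members were transport motors. Kif5b, the ubiquitous heavy chain of conventional kinesin, had a median of 103 TPM (61.0 to 127 over the libraries). Kif1c, a motor of Golgi and vesicle traffic, had a median of 89.7 TPM (65.0 to 135), so the ranges of Kif5b and Kif1c overlapped widely. On protein-coding transcripts alone their order was reversed, with medians of 75.8 TPM for Kif5b and 89.7 TPM for Kif1c. Kif13a, which carries endosomes, followed at 67.4 TPM (49.6 to 122), and Kif21a, a regulator of microtubule growth in the list of other members, at 64.7 TPM (34.8 to 229). A median of 50.3% of the Kif13a TPM came from a processed transcript with an effective length of 213 bases, and on protein-coding transcripts alone its median was 29.3 TPM, below the 64.7 TPM of Kif21a. Of the 13 transport members, 7 had a median of at least 10 TPM, against none of the 11 mitotic members, whose highest median was 9.57 TPM for Kif23 (1.24 to 153).

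Mitotic members also ranged more widely over the libraries. The ratio of the highest to the lowest CPM had a median of 125 over the 11 mitotic members, from 6.31 for Kif18a to 670 for Kif18b. It had a median of 2.55 over the 10 transport members with a count in every library, from 1.91 for Kif1b to 57.8 for Kif5c, a neuronal heavy chain with few counts. P20 Irx5KO 3 or 4 had the highest CPM of 10 mitotic members, the exception being Kif18a, which was highest in P18 WT 2. The heat map of all members shows this block of high values.

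**Figure D2:**
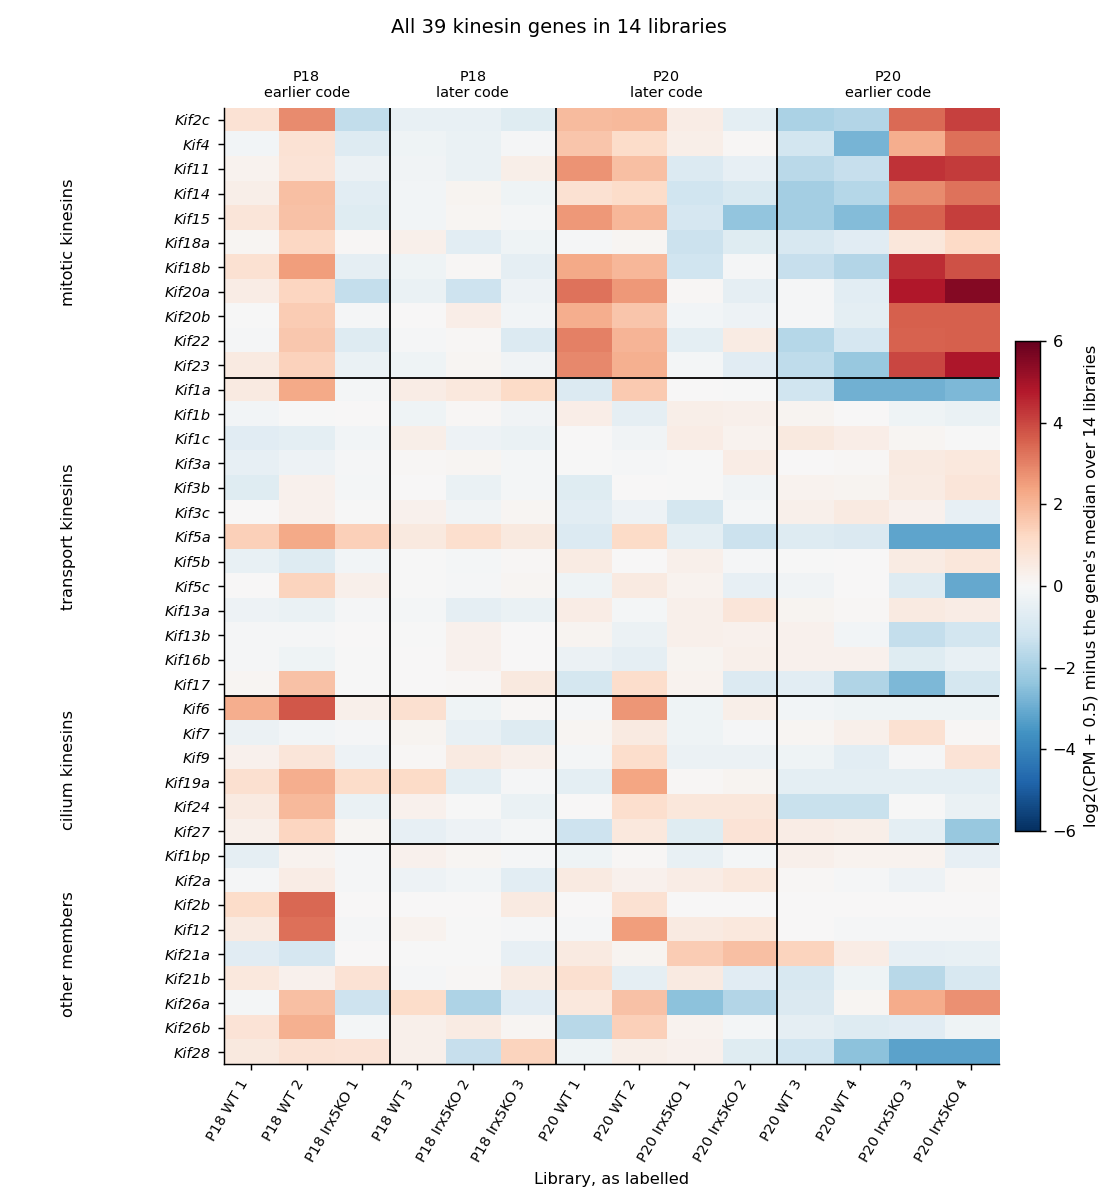
Each row is 1 of the 39 kinesin genes and each column 1 library; colour is log2(CPM + 0.5) minus the median of that gene over the 14 libraries, red for above and blue for below. The mitotic rows are darkest red in P20 Irx5KO 3 and 4, mostly lighter red in P20 WT 1 and 2 and P18 WT 2, and mostly blue in P20 WT 3 and 4, while most transport rows stay pale.

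At P20 under the earlier code, 10 of 11 mitotic kinesins were higher in the libraries labelled Irx5KO 3 and 4 than in those labelled WT 3 and 4, and none was lower. Their median log2 difference was 5.9, against 0.00 over all 24567 genes tested, of which 2.2% were called higher (edgeR, adjusted p under 0.05). In all 11, both Irx5KO libraries lay above both WT libraries, which held for 15.7% of all genes. This compares 2 libraries with 2, and in the same libraries Irx5 was higher under the label Irx5KO.

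Among the motors that build the spindle, Kif11 (chromosome 19, 37376403 to 37421859, plus strand, GRCm38), the bipolar motor that pushes spindle poles apart, was at 87 and 80.1 CPM in Irx5KO 3 and 4 and at 0.932 and 1.15 CPM in WT 3 and 4. Its log2 difference was 6.33 ± 0.55 (SE; edgeR, adjusted p = 1.2e-05). Kif15 (chromosome 9, 122951046 to 123018733, plus strand), which can take over from Kif11 at the spindle, was at 69.6 and 106 CPM against 0.965 and 0.484 CPM. Both spindle motors were thus barely counted in the WT libraries and well counted in the others.

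Motors that act on chromosomes and microtubule ends were spread more widely. Kif22, which binds chromosome arms, was at 34.6 and 36.4 CPM in Irx5KO 3 and 4 and at 0.433 and 1.03 CPM in WT 3 and 4. Kif4, also a chromosome motor, which shapes the central spindle, was at 34.9 and 75.5 CPM against 3.16 and 0.605 CPM. Kif2c, which takes microtubules apart at centromeres, was at 30.2 and 48.5 CPM against 0.266 and 0.363 CPM. Kif18b, which shortens astral microtubules, had the largest log2 difference of the mitotic members, 7.68 ± 1.08 (edgeR, adjusted p = 0.00065), with 40.6 and 26.2 CPM against 0.233 and 0.0605 CPM, the last from a single count. Kif18a, which damps chromosome movement, was the member that missed the threshold. It was at 18.6 and 27.3 CPM against 5.63 and 7.14 CPM, a log2 difference of 1.85 ± 0.51 (edgeR, adjusted p = 0.05 after rounding), and DESeq2 and limma voom called it. The exons of Kif4, Kif18a and Kif20a overlap another gene on the opposite strand, and strand was not stated.

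Motors of cytokinesis followed. Kif23, the motor of the centralspindlin complex, was at 102 and 187 CPM in Irx5KO 3 and 4 and at 1.76 and 0.847 CPM in WT 3 and 4, a log2 difference of 6.75 ± 0.56 (edgeR, adjusted p = 9e-06). Kif20a, which works at the central spindle, was at 74.6 and 121 CPM against 2.03 and 1.21 CPM. Kif14, which with the kinase citron helps the final cut, was at 60 and 79.8 CPM against 1.56 and 2.12 CPM. Kif20b, also needed late in division, was at 51.6 and 51.8 CPM against 3.66 and 2.42 CPM. The proliferation marker Mki67 was at 1250 and 1420 CPM in the same Irx5KO libraries and at 10.5 and 3.75 CPM in the WT libraries.

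At P20 under the later code, the direction was the opposite, and 5 of 11 mitotic kinesins were lower in Irx5KO 1 and 2 than in WT 1 and 2, with none higher. The median log2 difference was -2.79, against -0.34 over all genes, of which 0.517% were called lower. Both Irx5KO libraries lay below both WT libraries in all 11, as in 17.4% of all genes. Kif15 was at 2.50 and 0.687 CPM in Irx5KO 1 and 2 and at 35.9 and 23.8 CPM in WT 1 and 2, a log2 difference of -4.22 ± 0.61 (edgeR, adjusted p = 0.0041). Kif20a was at 2.36 and 1.34 CPM against 25.6 and 16 CPM, and Kif11 at 1.99 and 2.60 CPM against 27.2 and 14.7 CPM. Kif23 was at 5.35 and 3.53 CPM against 46.2 and 27.4 CPM, and Kif14 at 3.22 and 4.03 CPM against 15.4 and 18 CPM. The call of Kif14 (adjusted p = 0.049) was lost in 11 settings, leaving out any 1 of the P20 libraries among them (adjusted p from 0.057 to 0.4), and that of Kif15 in 1.

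The other 6 mitotic members did not pass, with log2 differences from -1.04 for Kif18a to -3.23 for Kif18b. Kif22 was at 1.53 and 3.71 CPM in Irx5KO 1 and 2 and at 24.2 and 12.0 CPM in WT 1 and 2 (edgeR, adjusted p = 0.16). The number called moved with single libraries, to 2 without Irx5KO 1, 1 without Irx5KO 2, 8 without P18 WT 1, which shares the estimate of the spread, and 8 without the 3 receptor-rich libraries, which include WT 2. DESeq2 called 8, where it called 297 of 24567 genes lower. None was called by limma voom, where 32 genes were called lower. In limma voom 9 were at an unadjusted p under 0.05, against 1297 of all genes. Mki67 was at 18.5 and 14.5 CPM in Irx5KO 1 and 2 and at 429 and 228 CPM in WT 1 and 2. Of the mitotic members, 3 and 4 lay under the mean receptor level in Irx5KO 1 and 2 (0.789 and 0.917 TPM). In WT 1 and 2, 0 and 1 did (0.587 and 2.85 TPM). Under the earlier code 1 did in each of WT 3 and 4 and none in Irx5KO 3 and 4.

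The genotype difference itself differed between the codes for all 11 mitotic kinesins (edgeR, adjusted p from 1e-06 for Kif23 to 0.025 for Kif18a), where 2.69% of all genes had a higher and 2.49% a lower difference under the earlier code. The median of this difference of differences was 9.08 on the log2 scale, from 2.89 for Kif18a to 11.1 for Kif15. Kif18a lost this call in 8 of the other settings, among them leaving out any of P20 Irx5KO 1, 2 and 4 and WT 2, 3 and 4. Of the transport members, none was higher and 3 were lower, namely Kif13b, Kif16b and Kif5a. Without P20 WT 3 none of them passed, without P20 Irx5KO 2 only 1 did, and the call of Kif5a was lost in 14 settings. Over both codes together, edgeR called no member between P20 Irx5KO and WT, and 0 of 24567 genes. At an unadjusted p under 0.05 was 1 member, against 1080 of all genes. DESeq2 called Kif5a lower, where it called 87 of 24567 genes lower and 17 higher. In limma voom Kif11, Kif14, Kif20a and Kif23 were called higher, where 51 genes were called higher and 4 lower. The pooled mitotic median of 1.48 turned to -1.16 without WT 3 and to -1.14 without WT 4, and rose to 4.18 without Irx5KO 1 and 4.19 without Irx5KO 2.

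**Figure D3:**
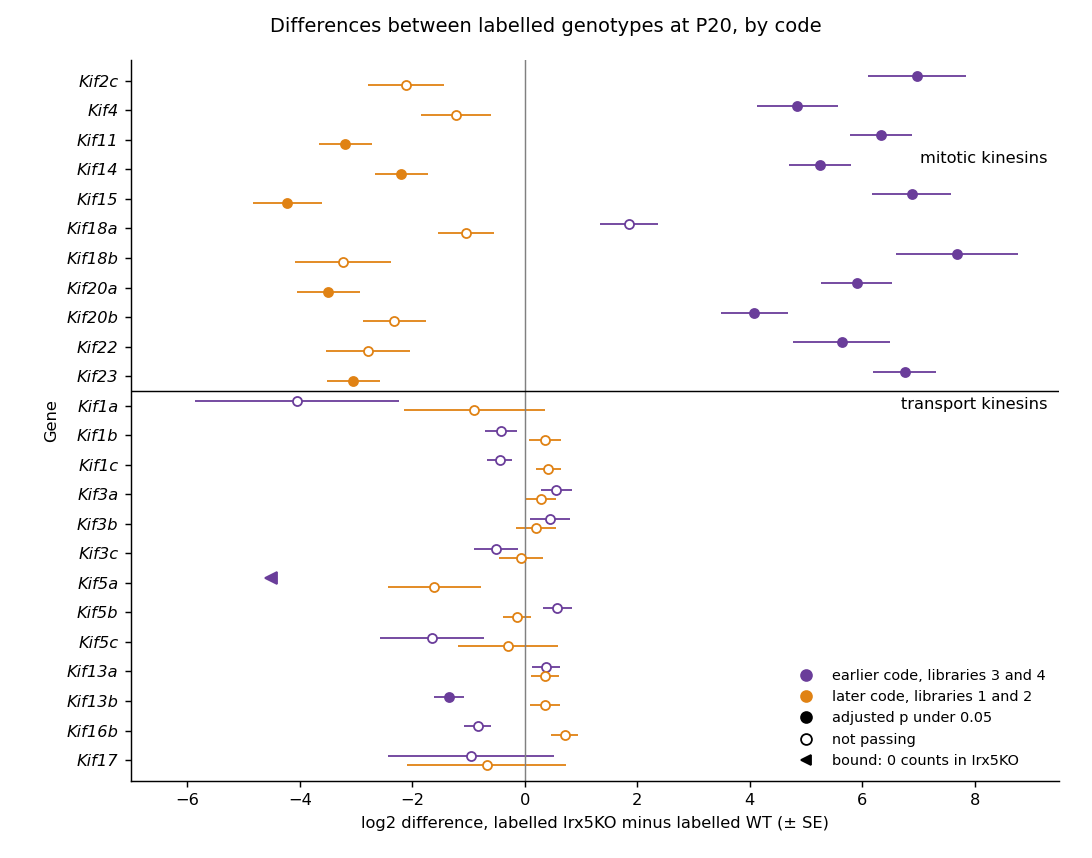
Log2 difference of labelled Irx5KO minus labelled WT at P20 for each mitotic and transport kinesin, with its standard error, under the earlier code (purple) and the later code (orange); filled points passed an adjusted p of 0.05, open points did not, and the triangle is a bound where the Irx5KO libraries had 0 counts. Mitotic members lie on opposite sides of 0 under the codes, and most transport members lie near 0 under both.

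Transport kinesins moved far less than mitotic ones between the P20 libraries. Under the earlier code, 2 of 13 were lower in Irx5KO 3 and 4 and none was higher, where 2.62% of all genes were lower. The median log2 difference was -0.51, also with Kif5a set to its bound. Under the later code none of 13 was called by edgeR, DESeq2 or limma voom, and the median was 0.2. In edgeR 1 was at an unadjusted p under 0.05, against 1700 of all genes. Kif5b, the member with the highest median TPM, was at 396 and 447 CPM in Irx5KO 3 and 4 and at 282 and 284 CPM in WT 3 and 4, a log2 difference of 0.58 ± 0.25 (edgeR, adjusted p = 0.26). Kif1c was at 473 and 424 CPM against 652 and 571 CPM under the same code, without passing.

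Kif13b, which carries vesicles and signalling proteins, was the abundant transport member that passed. It was at 26.8 and 33.2 CPM in Irx5KO 3 and 4, the lowest of all 14 libraries, and at 87.7 and 64.8 CPM in WT 3 and 4. The remaining libraries held 57.2 to 88.7 CPM. The log2 difference was -1.35 ± 0.26 (edgeR, adjusted p = 0.007), and the adjusted p was 0.06 without Irx5KO 3, 0.09 without WT 3 and 0.052 with TMM over all genes. Kif16b, a motor of early endosomes, was at 40.4 and 49.1 CPM in Irx5KO 3 and 4 and at 81.4 and 78.9 CPM in WT 3 and 4, and ran the other way under the later code, with 74.6 and 83.6 CPM in Irx5KO 1 and 2 against 51.7 and 45.2 CPM in WT 1 and 2. It passed under neither code alone (edgeR, adjusted p = 0.06 and 0.38), and its difference between the codes was -1.55 ± 0.34 (edgeR, adjusted p = 0.013, and 0.055 without WT 3, 0.061 without Irx5KO 2 and 0.1 with TMM over all genes). DESeq2 and limma voom called Kif16b lower under the earlier code, as did edgeR without the 3 receptor-rich libraries (adjusted p = 0.032).

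The subunits of the heterotrimeric motor kinesin-2, which moves cargo into cilia and along axons, did not pass at P20. Kif3a was at 41.6 and 44.7 CPM in Irx5KO 3 and 4, the highest values of all libraries, and at 28.5 and 29.8 CPM in WT 3 and 4, a log2 difference of 0.56 ± 0.28 (edgeR, adjusted p = 0.34). Kif3b was also highest in Irx5KO 3 and 4, at 43.9 and 50.9 CPM, against 35.2 and 34.3 CPM. Kif3c showed no such order, with 27.0 and 15.6 CPM against 28.2 and 32.6 CPM.

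Kif5a, a heavy chain known from neurons, had 98 counts in WT 3 and 4 together and none in Irx5KO 3 and 4, which makes it at least 22.9-fold lower there (3 counts over the group as the floor). It was called lower (edgeR, adjusted p = 0.0053). Kif1a, a motor of synaptic vesicle precursors, had 32 counts in WT 3 and 4 and 1 count in Irx5KO 3 and 4, a ratio of 22.4 (95% counting interval 3.75 to 914) that did not pass. By CPM both genes were highest in P18 WT 2, at 21.1 CPM for Kif5a and 17.3 CPM for Kif1a. In the P18 WT libraries they were at most 4.41 and 4.62 TPM, under the mean receptor level of P18 WT 2, 7.52 TPM. Markers of neurons and Schwann cells summed to 0.496 and 3.47 TPM in Irx5KO 3 and 4 and to 3.32 and 1.51 TPM in WT 3 and 4. In Irx5KO 3, 5 of these 7 markers were at 0, Tubb3, Snap25 and Syt1 among them. The list was highest in P18 WT 2, at 32.4 TPM, where 5 of the 7 lay at or below the mean receptor level. The part of other cell types in the values of Kif5a and Kif1a was not tested.

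Kif21a, which halts microtubule growth at the cell cortex, ranged over 6.92-fold between its highest and lowest CPM. It was at 995 and 1200 CPM in P20 Irx5KO 1 and 2 and at 492 and 387 CPM in P20 WT 1 and 2. Under the earlier code it was at 241 and 251 CPM in Irx5KO 3 and 4 and at 877 and 464 CPM in WT 3 and 4. Kif21a was thus higher under the label Irx5KO with the later code and lower with the earlier code. The log2 difference was -1.45 ± 0.31 under the earlier code (edgeR, adjusted p = 0.013) and 1.32 ± 0.31 under the later code (adjusted p = 0.081, where DESeq2 called it), and the difference between the codes was -2.77 ± 0.44 (adjusted p = 0.0011). The call under the earlier code was lost without WT 3 (log2 difference -0.97, adjusted p = 0.26), Irx5KO 3 (0.083) or Irx5KO 4 (0.095), with the replicate block (0.056) and with TMM over all genes (0.087). At P18, Kif21a was at 173 to 340 CPM in WT and 247 to 347 CPM in Irx5KO.

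**Figure D4:**
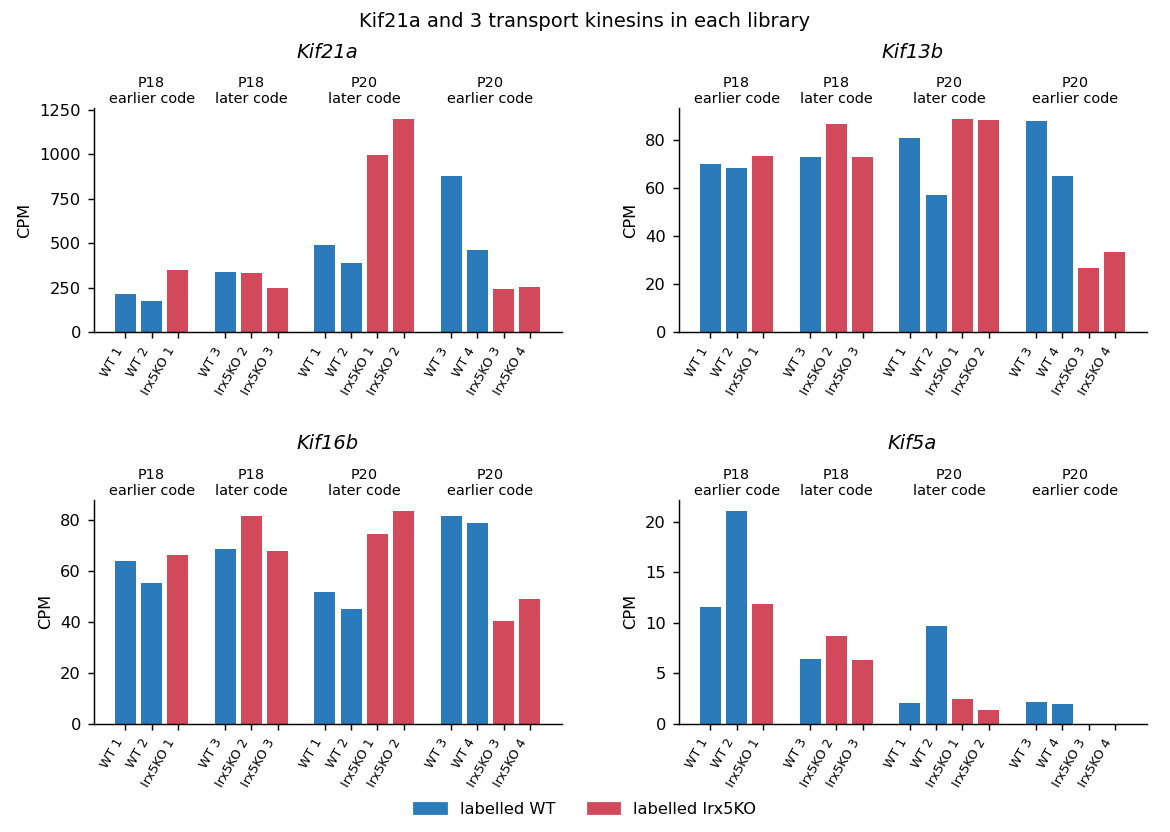
CPM of Kif21a, Kif13b, Kif16b and Kif5a in each library, by age and date-like code; each bar is 1 library, blue for labelled WT and red for labelled Irx5KO. At P20 the first 3 genes are lower in Irx5KO 3 and 4 than in WT 3 and 4 and higher in Irx5KO 1 and 2 than in WT 1 and 2, and Kif5a has no count in Irx5KO 3 and 4.

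Among the remaining members, Kif26a moved with the mitotic group at P20. Kif26a, which lacks motor activity and acts in signalling of enteric neurons, was at 15.5 and 22.8 CPM in Irx5KO 3 and 4 and at 1.36 and 3.21 CPM in WT 3 and 4. It was at 0.115 and 0.508 CPM in Irx5KO 1 and 2 and at 4.86 and 11.2 CPM in WT 1 and 2. It passed under neither code alone (edgeR, adjusted p = 0.11 and 0.085), and its difference between the codes was 7.75 ± 1.49 (adjusted p = 0.0053, and 0.053 without WT 3). DESeq2 called Kif26a under both codes and limma voom under the earlier code, as did edgeR there without the 3 receptor-rich libraries (adjusted p = 0.025). Kif28 had 53 counts in WT 3 and 4 and none in Irx5KO 3 and 4, at least 12.4-fold lower (edgeR, adjusted p = 0.048), a call that 9 other settings did not keep, leaving out any P20 Irx5KO library or WT 3 among them. Kif28 shares exon sequence on the same strand with the more abundant Ahctf1.

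Kif2a, which takes microtubules apart at spindle poles and in neurons and is expressed outside division too, did not follow the mitotic members. It was at 31.2 and 41.4 CPM in Irx5KO 3 and 4 and at 40.8 and 37.6 CPM in WT 3 and 4. Kif21b, a relative of Kif21a, was at 63.7 to 394 CPM over all libraries and passed in no comparison by edgeR. Kif2b, which works in mitosis, had 101 of its 148 counts in P18 WT 2, the library richest in receptor counts, and 0 counts in 10 libraries. Kif12 had 96 of its 197 counts in the same library.

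No cilium kinesin passed in any comparison of genotypes by edgeR, DESeq2 or limma voom, with all libraries and transcripts. In edgeR at most 1 per comparison was at an unadjusted p under 0.05, against 331 to 4168 of all genes. Kif7, the cilium motor that regulates Hedgehog signalling, was at 97.1 and 52.5 CPM in P20 Irx5KO 3 and 4, 54.7 and 62.8 CPM in WT 3 and 4, 41.8 and 47.4 CPM in Irx5KO 1 and 2 and 55.2 and 74.5 CPM in WT 1 and 2. Its exons overlap Ticrr on the opposite strand, and strand was not stated. Kif24, which restrains cilium growth, was at 29.4 and 22.1 CPM in Irx5KO 3 and 4 and at 11.3 and 11.3 CPM in WT 3 and 4, a log2 difference of 1.19 ± 0.42 (edgeR, adjusted p = 0.14). Kif24 passed there without the 3 receptor-rich libraries (edgeR, log2 difference 1.2, adjusted p = 0.022) and with protein-coding transcripts alone (1.55, adjusted p = 0.043). Kif24 was highest in P18 WT 2, at 116 CPM, and a median of 15% of its TPM came from protein-coding transcripts. Kif6 and Kif19a, motors of motile cilia, were at or under 3.32 CPM in every library other than P18 WT 2, where Kif6 was at 7.62 CPM.

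At P18, no member was called between Irx5KO and WT by edgeR, DESeq2 or limma voom, as was so in edgeR for 0 of 24567 genes, with 1 member (Kif24) at an unadjusted p under 0.05 in edgeR, 3 in DESeq2 and 4 in limma voom. All 11 mitotic members had a negative log2 difference, with a median of -0.9, against -0.55 over all genes. This median became 0.10 without Irx5KO 1 and 0.06 without the 3 receptor-rich libraries. Kif2c showed the widest gap, at 4.81, 20.1 and 1.60 CPM in WT 1 to 3 and 0.542, 1.64 and 1.26 CPM in Irx5KO 1 to 3. These ranges overlap, and Kif2c was lower in Irx5KO at each of the 3 library numbers. The summed mitotic CPM was also lower at each number, at 38.6 against 69.1, 48.9 against 172 and 46.7 against 50.8 CPM for numbers 1 to 3. No mitotic member passed with the number as a block. The numbers may not be pairs, since number 2 joins WT 2 of the earlier code with Irx5KO 2 of the later code. Kif18a was the mitotic member whose groups did not overlap, as in 19.5% of all genes, with 12.4, 28.5 and 14.3 CPM in WT and 12.3, 7.26 and 9.73 CPM in Irx5KO. Kif11 was at 4.48, 7.23 and 3.29 CPM in WT and at 2.88, 2.77 and 5.04 CPM in Irx5KO. P18 WT 2 was the highest of the P18 libraries for all 11. In that library the mean level of the receptor genes was 7.52 TPM, and 4 of 11 mitotic members lay under it. In the other P18 libraries, where that mean was 0.804 to 2.52 TPM, 2 to 5 did.

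The transport members had a median log2 difference of -0.09 at P18, from -0.69 for Kif1a to 0.22. Kif5b was at 208, 168 and 277 CPM in WT 1 to 3 and at 254, 262 and 293 CPM in Irx5KO 1 to 3. Kif1c was at 265, 284 and 543 CPM in WT and at 387, 353 and 325 CPM in Irx5KO, so the groups overlapped for both abundant motors.

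Each age has its own codes, so age and code cannot be told apart. From P18 to P20, no member was called in WT by edgeR or DESeq2 (0.195% of all genes were called either way in edgeR). At an unadjusted p under 0.05 were 3 members in each, against 2375 and 2936 of all genes. In limma voom 23 of 39 members were called, where it called 2747 genes higher and 11553 lower of 24567. In Irx5KO, all 11 mitotic members had a positive log2 difference with a median of 3.47, against 0.00 over all genes, and without the P20 libraries numbered 3 and 4 the median was -0.32, with 4 of 11 positive. None was called by edgeR (1.6% of all genes were), and 12 members had an unadjusted p under 0.05, against 3320 of all genes. DESeq2 called 6 mitotic members and Kif13a higher, and limma voom called Kif13a alone. Over all 24567 genes, DESeq2 called 717 higher and 671 lower there, and limma voom 547 and 734. Kif13a was at 99.9, 72.2 and 78.3 CPM in P18 Irx5KO and at 131, 175, 155 and 142 CPM in P20 Irx5KO, groups that do not overlap, as in 5.25% of all genes (log2 difference 0.85 ± 0.21, edgeR, adjusted p = 0.06). In WT it was at 83.7, 79.3 and 97.4 CPM at P18 and at 142, 95.5, 118 and 110 CPM at P20, which overlap. For a change of the genotype difference between the ages, no member was called by edgeR, DESeq2 or limma voom. Of all 24567 genes, edgeR called 0. At an unadjusted p under 0.05 were 2 members in edgeR, 3 in DESeq2 and 14 in limma voom, against 331, 788 and 2058 of all genes. This fit too holds 1 genotype term for P20, so the opposite directions under the codes add to its spread. A change between the ages could thus be missed.

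The transcripts behind the mitotic values differed between libraries. Protein-coding transcripts held 70.0% and 58.3% of the mitotic TPM in P20 Irx5KO 3 and 4, 60.3% and 41.2% in P20 WT 1 and 2, and 47.8% and 44.0% in P20 WT 3 and 4. They held 30.8% and 14.8% in P20 Irx5KO 1 and 2 and 17.2% to 27.6% in the P18 libraries. Retained-intron transcripts held 46.1% to 74.3% at P18 and in P20 Irx5KO 1 and 2, and 16.3% to 37.4% in the other P20 libraries. The transport share of protein-coding transcripts was 61.4% to 84.1% in all libraries. By estimated counts, which do not weight short transcripts up, the mitotic coding share at P18 was 44.6% to 52.8%, against 86.6% and 82.9% in P20 Irx5KO 3 and 4.

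**Figure D5:**
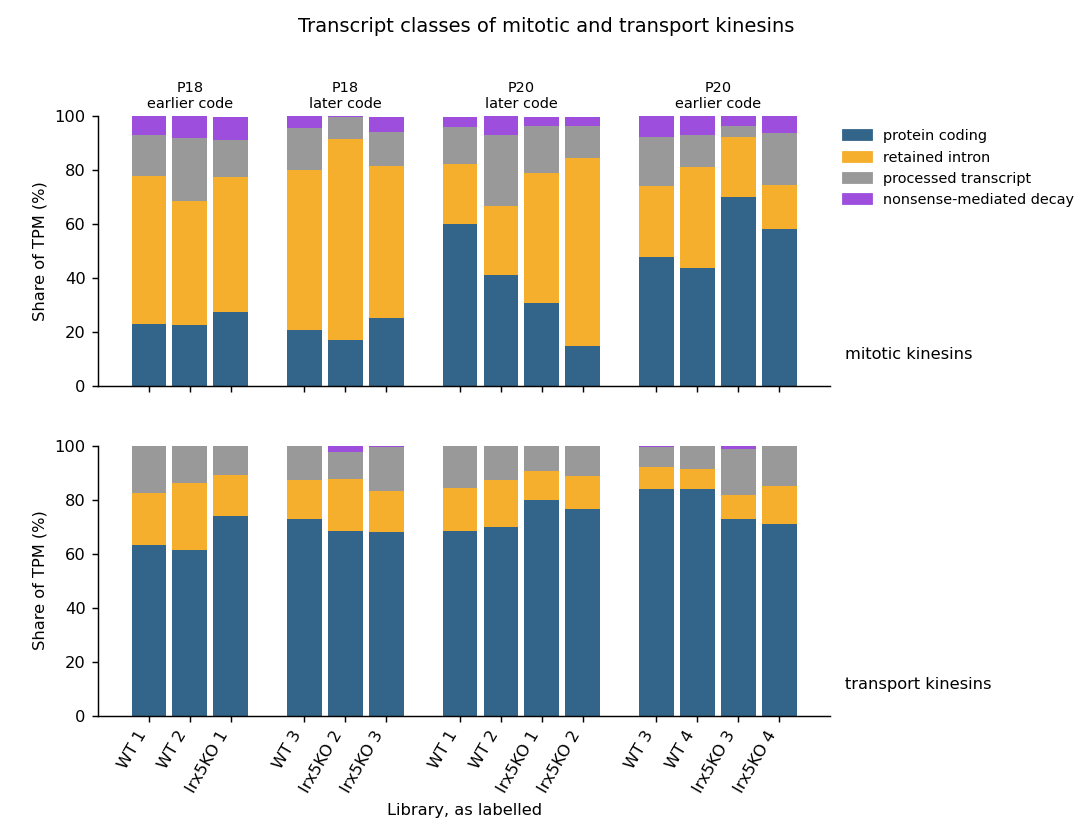
Share of the summed TPM of the mitotic kinesins (top) and the transport kinesins (bottom) by annotated transcript class, in percent, for each library. The protein-coding share of the mitotic members is 41.2% to 70.0% in the P20 libraries with mitotic sums over 100 TPM and 14.8% to 30.8% at P18 and in P20 Irx5KO 1 and 2.

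Single genes also differed from each other in their transcripts, by medians over the 14 libraries. Kif11 was mostly coding, with a median of 74.6% of its TPM from 1 protein-coding transcript (52.6% to 100% over the libraries). Kif4 had a median of 73.8% from a retained-intron transcript, and Kif23 had a median of 5.15% from protein-coding and 52.2% from processed transcripts. Counted on protein-coding transcripts alone, Kif23 was at 37.1 and 51.9 TPM in P20 Irx5KO 3 and 4, 11.7 and 3.97 TPM in WT 1 and 2 and 0 to 0.626 TPM in the other 10 libraries. With these transcripts alone, 9 mitotic members were called higher under the earlier P20 code, without Kif23 and Kif18a, and 2, Kif11 and Kif15, lower under the later code. Of the transport members, 3 were then lower under the earlier code, Kif16b joining Kif13b and Kif5a.

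The partners of the mitotic kinesins followed them. Of 16 listed genes for proteins that bind or steer these motors, 15 were higher under the earlier P20 code, against 2.2% of all genes. Their list had a median log2 difference of 5.74. Under the later code 10 of 16 were lower, against 0.517% of all genes, and the median of the list was -2.83. Prc1, the microtubule bundler that recruits Kif4, was at a mean of 221 CPM in Irx5KO 3 and 4 and 4.66 CPM in WT 3 and 4 (log2 difference 5.56 ± 0.44, edgeR, adjusted p = 7.4e-06). Kifc1, a minus-end kinesin outside the naming rule, was at a mean of 44.3 against 0.856 CPM under the earlier code and 0.292 against 9.47 CPM under the later code. Aurkb, the kinase that phosphorylates several of these motors, was the partner that did not pass under the earlier code, at a mean of 38.1 against 0.300 CPM (edgeR, adjusted p = 0.21). Over all P18 libraries, 15 of the 16 had a negative log2 difference and none passed by edgeR, with 0 at an unadjusted p under 0.05.

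The adaptors of transport kinesins changed little. Of 16, 1 was lower and none higher under the earlier code, where 2.62% of all genes were lower. The adaptor called was Klc3, a kinesin light chain, at a mean of 90 against 167 CPM (log2 difference -0.89 ± 0.23, edgeR, adjusted p = 0.039). Of 17 genes of cytoplasmic dynein and dynactin, the motor of the opposite direction, 1 was higher, where 2.2% of all genes were. This was Nde1, at a mean of 59.3 against 20 CPM, whose product also works in mitosis. None of 13 intraflagellar transport genes, which build cilia with kinesin-2, passed in any comparison of genotypes by edgeR. At most 1 per comparison was at an unadjusted p under 0.05, against 331 to 4168 of all genes. From P18 to P20 in Irx5KO, 2 of the 17, the dynactin genes Dctn3 and Dctn4, were called lower, where 1.6% of all genes were called either way.

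Markers of most other cell types were low beside those of the bulge, whose sum was mostly Krt15. Markers of T cells summed to 2.46 to 56.3 TPM, those of endothelial cells to 1.7 to 49.6 TPM, those of melanocytes to 5.08 to 33.0 TPM and those of myeloid cells to 3.2 to 36.7 TPM. The highest sum of each of these lists was that of P18 WT 2, the library richest in receptor counts. There 3 T cell, 2 endothelial, 4 melanocyte and 2 myeloid markers lay at or below the mean receptor level. In P20 Irx5KO 3 and 4, where mitotic kinesins were highest, myeloid markers were lowest, at 3.2 and 4.34 TPM, T cell markers were at 4.17 and 2.46 TPM and endothelial markers at 3.57 and 1.7 TPM, with the defining endothelial genes Cdh5 and Kdr at 0 in both. Markers of hair germ and matrix summed to 53.1 and 75.8 TPM in P20 Irx5KO 4 and 3, 105 and 134 TPM in WT 3 and 4, 69.8 and 60.3 TPM in WT 1 and 2 and 71.5 and 77.9 TPM in Irx5KO 1 and 2. Fibroblast markers were at 56.5 and 46.5 TPM in P20 Irx5KO 3 and 4, with Lum and Pdgfra at 0 in Irx5KO 4. They were at 11.6 to 94.1 TPM over all libraries, highest in P18 WT 2. Skeletal muscle markers were at 0.166 to 24.1 TPM, highest in P18 WT 2. Markers of suprabasal epidermis were at 137 to 742 TPM in all libraries other than P20 Irx5KO 1, at 2220 TPM. The part of cell composition in the kinesin differences was not tested.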

How the data were processed

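RNA abundance was measured by single-end RNA-seq in 14 libraries. The deposited values are estimated counts and TPM (abundance scaled to a fixed total) per transcript. Per the labels' protocols the authors made them with version 0.46.2 of kallisto. mm10 and DESeq2 are named in the submitters' processing notes, while the sources used here do not give the annotation of the transcript index. Transcripts were summed to genes through the GENCODE annotation. Of 118489 transcripts, 1761 matched no gene and were left out. Gene sums of the estimated counts were rounded to whole numbers, since the tests need them.

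Groups came from the sample titles. The tests used edgeR 4.0.16 (quasi-likelihood, robust) in R 4.3.3 on 24567 genes kept by filterByExpr, with TMM factors computed over the 10528 genes of at least 8 CPM, and Benjamini-Hochberg adjustment over all genes tested. A gene was called at an adjusted p under 0.05. The pooled genotype comparisons had the date-like code within age as a term (8 residual degrees of freedom), those within a code had 1 coefficient per code and genotype (6), and those of age 1 per age and genotype (10). SE is the log2 difference over the square root of its F. Comparisons of this kind share libraries and the estimate of the spread. The procedure was tested on simulated data.

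Alternatives were other scalings and filters, DESeq2 1.42.0, voom of limma 3.58.1 with quality weights, each library left out, the receptor-rich libraries or the P20 libraries numbered 3 and 4 left out, a replicate block and, chosen after seeing the data, protein-coding transcripts alone. Deviations from group means of same-numbered P18 libraries correlated between the genotypes (r = 0.38, 0.17 and 0.27 across genes for numbers 1, 2 and 3). Number 2 joins libraries of different codes, so the numbers were not shown to pair the libraries, and the replicate block is an alternative only. Any member could be named. The members and lists were chosen with earlier results of these data known.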

Additional observations from a re-analysis of the deposited data

Results flagged for a closer look

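In 69 sets of 4 P20 libraries of 1 genotype, 1 set per member with a mean of at least 1 CPM, 4 held a library whose gap to the others exceeded Dixon's critical share of the whole range, which chance gives in about 1 in 20 sets. Kif1a was at 10.2 CPM, Kif5a at 9.72 CPM and Kif26b at 39.1 CPM in P20 WT 2, a library with 2.41% receptor counts, where the other WT libraries held 0 to 1.58, 2.0 to 2.16 and 4.2 to 9.55 CPM. Kif5b was at 399 CPM in P20 WT 1, against 282 to 287 CPM in the other WT libraries.

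The genotype difference at P20 differed between the date-like codes in 16 members, by a test of the difference itself (edgeR, adjusted p under 0.05). On the log2 scale, earlier minus later code, it was 11.1 for Kif15, 10.91 for Kif18b, 9.81 for Kif23, 9.52 for Kif11, 9.39 for Kif20a and 9.08 for Kif2c. It was 8.42 for Kif22, 7.75 for Kif26a, 7.45 for Kif14, 6.4 for Kif20b, 6.06 for Kif4 and 2.89 for Kif18a. It was negative for Kif5a (-7.52, a value that rests on 0 counts in 2 libraries and so on the prior count), Kif21a (-2.77), Kif13b (-1.7) and Kif16b (-1.55). Irx5 itself was higher under the label Irx5KO than under WT with the earlier code and lower with the later code.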

How the results depend on the processing

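No gene called in the main fit changed direction in another setting. Members without a main call in a comparison, as in pooled P20, were not checked for this. Of the single-gene values, 447 kept their call and 43 lost it with 1 library left out, and 288 kept it and 27 lost it under other settings. With 1 library left out, the number of members called ranged from 10 to 11 (mitotic) and 1 to 3 (transport) under the earlier P20 code, 1 to 8 and 0 to 0 under the later code, 10 to 11 and 0 to 3 for the difference between codes, and 0 to 0 in the other comparisons. Under the later code the 5 mitotic calls became 8 with no filter, 8 with DESeq2, 8 without the receptor-rich libraries, 2 with protein-coding transcripts and 0 with voom. TMM over all genes left 1 transport call under the earlier code and 1 for the difference, moved the median of all genes at P18 from -0.55 to -0.16, and changed the genes called with age to 0 in WT and to 19 higher and 82 lower in Irx5KO. For pooled P20, voom gave 4 mitotic calls, all higher, among 51 genes higher and 4 lower. Leaving out libraries 3 and 4 gave 2 and left only the later code, under which all 11 mitotic members had negative log2 differences in the main fit. No filter and DESeq2 each gave 1 transport call, among 21 and 17 genes higher and 186 and 87 lower. With age in WT, voom gave 5 mitotic and 7 transport calls, among 2747 genes higher and 11553 lower. With age in Irx5KO, DESeq2 gave 6 mitotic calls, and the 1 CPM filter, DESeq2 and voom each gave 1 transport call. The mitotic share at P18 was 3.76% (WT) and 1.82% (Irx5KO) with coding transcripts and 2.35% (Irx5KO) by CPM. The mitotic coding share by estimated counts was 45.7% (P18 WT), 52.5% (P18 Irx5KO) and 69.0% (P20 WT). The causes were not tested.

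With the replicate block, mitotic calls were 0 at P18, 0 for pooled P20, 4 under the later code, 10 under the earlier code and 11 for the difference, with transport calls of 2 under the earlier code and 2 for the difference. P20 libraries of the same number correlated at 0, 0.34, 0.08 and 0.27, and the titles do not say at either age that the numbers mark pairs. Depth limits members near 1 CPM, such as Kif18b in P20 WT 3 and 4, and each code holds 2 libraries per genotype.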
